A study of Mus musculus with 15 samples.

Results

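Hand1, Hand2, Irx1, Irx2, Irx3, Irx4, Irx5, Nr2f1 and Nr2f2 are the 9 genes described here, out of 23154 genes in the deposited tables of single mouse heart cells. They were taken by name as transcription factors of heart chamber identity. They were followed in cells with at least 2000 CPM (counts scaled to a fixed total per cell) of Tnnt2, the cardiac troponin T gene, a mark of contractile cells. After leaving out cells with fewer than 2000 counts or 1000 detected genes, 1332 of 1400 cells were kept, and 926 of these passed the Tnnt2 threshold (371 from Isl1Cre embryos and 555 from Nkx2-5Cre embryos). The embryos carried Isl1Cre::Rosa26tdTomato or Nkx2-5Cre::Rosa26tdTomato, alleles in which Cre named for Isl1 or for Nkx2-5 turns on a red reporter, and both lines carried the reporter allele. They were taken at 4 embryonic stages (E, in days) between E7.75 and E9.25. Each of the 8 groups of lineage and stage had 2 libraries, except Isl1Cre at E9.25, which had 1. Both libraries of each pair bear 1 embryo number in their titles, so that p-values measure the spread between libraries, which may come from 1 embryo. Cells were FACS-sorted or only trypsinised before picking, and the labels do not say which library had which treatment, so that the makeup of a library is also set by how its cells were picked. The letters I and N in the titles were read as Isl1Cre and Nkx2-5Cre from the design text.

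HAND proteins are basic helix-loop-helix factors. In the mouse, Hand1 is known from the outer curvature of the left ventricle and Hand2 from the second heart field, the outflow tract and the right ventricle. Iroquois (Irx) proteins are homeodomain factors encoded in 2 clusters. Irx4 is restricted to ventricular myocardium, Irx1 and Irx2 mark the ventricular septum, and Irx3 and Irx5 act in the ventricular conduction system and in the repolarisation gradient of the wall. Nr2f1 and Nr2f2 encode the orphan nuclear receptors COUP-TFI and COUP-TFII. Nr2f2 holds atrial identity in mouse myocardium, and a role of Nr2f1 in atrial identity is known from zebrafish and from human stem cell derivatives.

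In the GRCm38 annotation (GENCODE vM21), Irx1, Irx2 and Irx4 lie on chromosome 13 within 1311.7 kb, with Irx4 at chr13:73260479-73269608 on the plus strand. Irx3, Irx5 and Irx6 lie on chromosome 8 within 882.4 kb. Hand1 is at chr11:57828705-57832818 (minus strand), Hand2 at chr8:57320983-57324633 (plus strand), Nr2f1 at chr13:78188973-78199757 (minus strand) and Nr2f2 at chr7:70351944-70366735 (minus strand). Irx3 overlaps the antisense gene Irx3os, Nr2f1 overlaps the antisense gene A830082K12Rik, and Hand2 overlaps the transcript Hand2os1 on the other strand. The sources used here do not say whether reads were counted by strand. Reads that fall within these overlaps may therefore not be told apart. The 3′ ends of Irx3, Nr2f1 and Hand2 lie outside the overlaps. A830082K12Rik itself reached at most 1.15 CPM in any library of Tnnt2-high cells.

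Irx2 and Irx4 were higher, and Nr2f2 lower, in Tnnt2-high than in Tnnt2-low cells. The 150 bases before the RefSeq start of each of these 3 genes (build GRCm38.p6) are therefore shown, 5′ to 3′ on the gene's own strand, at chr13:72628670-72628819 for Irx2, chr13:73260347-73260496 for Irx4 and chr7:70366747-70366896 for Nr2f2. Capitals mark any match to CANNTG, the E-box that basic helix-loop-helix proteins bind.
Irx2: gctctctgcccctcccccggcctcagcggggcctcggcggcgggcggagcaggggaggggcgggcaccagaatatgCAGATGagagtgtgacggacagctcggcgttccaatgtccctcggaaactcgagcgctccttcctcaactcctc
Irx4: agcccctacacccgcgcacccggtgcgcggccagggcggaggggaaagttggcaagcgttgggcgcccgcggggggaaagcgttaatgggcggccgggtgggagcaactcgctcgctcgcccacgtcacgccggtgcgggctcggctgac
Nr2f2: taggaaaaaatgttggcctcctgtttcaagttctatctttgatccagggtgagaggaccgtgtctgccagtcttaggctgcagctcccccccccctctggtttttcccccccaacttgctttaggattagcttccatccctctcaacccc
Of these windows, the one of Irx2 held 1 CANNTG, and those of Irx4 and Nr2f2 held 0; 47.7% of 32851 such mouse windows held at least 1. None of the 3 windows held ACANNTGT, the Iroquois motif, every copy of which contains a CANNTG (3.5% of all windows), or AGGTCA, the core motif of nuclear receptors (8.6%), on either strand. The G and C share was 68.0% before Irx2, 74.0% before Irx4 and 52.7% before Nr2f2, against a median of 54.0% over all windows. A motif match is a description of the letters, not a site.

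The libraries of Tnnt2-high cells held 16 to 89 cells each, and the median count per cell in them lay between 69489.5 and 364403. The deepest was Nkx2-5Cre E7.75 replicate 1. It had a median of 364403 counts, against 173157 in replicate 2 of its group, and Irx1 was detected in 73.7% and 27.0% of their cells. Because a count of 1 was worth more CPM in a shallow cell, detection is also given below after drawing 20000 counts from each cell, which kept 845 cells. At 20000 counts, Irx1 was detected in 8 of 36 cells (22.2%) of Nkx2-5Cre E7.75 replicate 1. In replicate 2 it was detected in 2 of 31 cells (6.5%). The exact intervals of these shares, 10.1 to 39.2% and 0.8 to 21.4%, overlapped. The part of depth in the Irx1 gap was not tested. The summed level of 10 cardiomyocyte markers per library was 19670.8 to 47313.0 CPM in Isl1Cre and 25183.6 to 48691.8 CPM in Nkx2-5Cre cells, with none of the 10 at 0. The 8 endothelial markers summed to 63.2 to 272.4 CPM in Isl1Cre and 108.8 to 189.1 CPM in Nkx2-5Cre Tnnt2-high cells, with none at 0. The 5 blood markers reached at most 219.4 CPM in Isl1Cre and 1206.2 CPM in Nkx2-5Cre libraries, with Hba-a1 at 0 in each. The part of other cell types in the results was not tested. Of the cells near the Tnnt2 threshold, 105 lay at 1000 to 2000 CPM and 96 at 2000 to 3000 CPM.

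Few of the 9 genes passed a test between the lineages. With 1 or 2 libraries per group, a gene that did not pass may still differ. Averaged over stages, 0 of 9 passed an adjusted p of 0.05 (limma with Benjamini-Hochberg adjustment over 10523 genes), where 2.97% of all genes tested passed. At E7.75, 2 of 9 passed, Hand1 and Irx2, both lower in Isl1Cre, where 8.82% of all genes passed. At E8.25, E8.75 and E9.25 none of the 9 passed, where 0.760%, 0.0665% and 0.105% of all genes did. The median log2 difference of the 9 genes at E7.75 was -0.81, beside -0.14 over all genes tested. The list of 13 ventricular genes, chosen like all lists here with earlier results of these data known, moved the same way at that stage. Of its 11 tested genes, 7 passed as lower in Isl1Cre and 0 as higher, with Myl2 and Myh7, the ventricular myosin genes, at log2 differences of -1.64 ± 0.15 and -1.87 ± 0.17 (SE). The Tnnt2-high cells were also fewer there, at 17.8% and 27.1% of kept cells in the 2 Isl1Cre libraries, against 41.8% and 39.4% in the 2 Nkx2-5Cre libraries.

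Over stages, Irx2, Irx4, Irx5 and Nr2f2 each passed at least 1 test. In Isl1Cre cells, 3 of 9 passed as changing per day, Irx2 and Irx4 upward and Irx5 downward, where 13.8% of all genes passed. In Nkx2-5Cre cells 1 of 9 passed, Irx5 downward, where 14.1% of all genes passed, so that the members' share there was no higher than that of all genes. The difference of the slopes between lineages passed for 0 of 9 (0.798% of all genes), so that no slope is shown to differ between Isl1Cre and Nkx2-5Cre. Between neighbouring stages, averaged over both lineages, Irx4 passed from E7.75 to E8.25 (1 of 9, higher at E8.25; 16.8% of all genes), 0 of 9 passed from E8.25 to E8.75 (1.17%), and Nr2f2 passed from E8.75 to E9.25 (1 of 9, lower at E9.25; 0.399%).

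**Figure D1:**
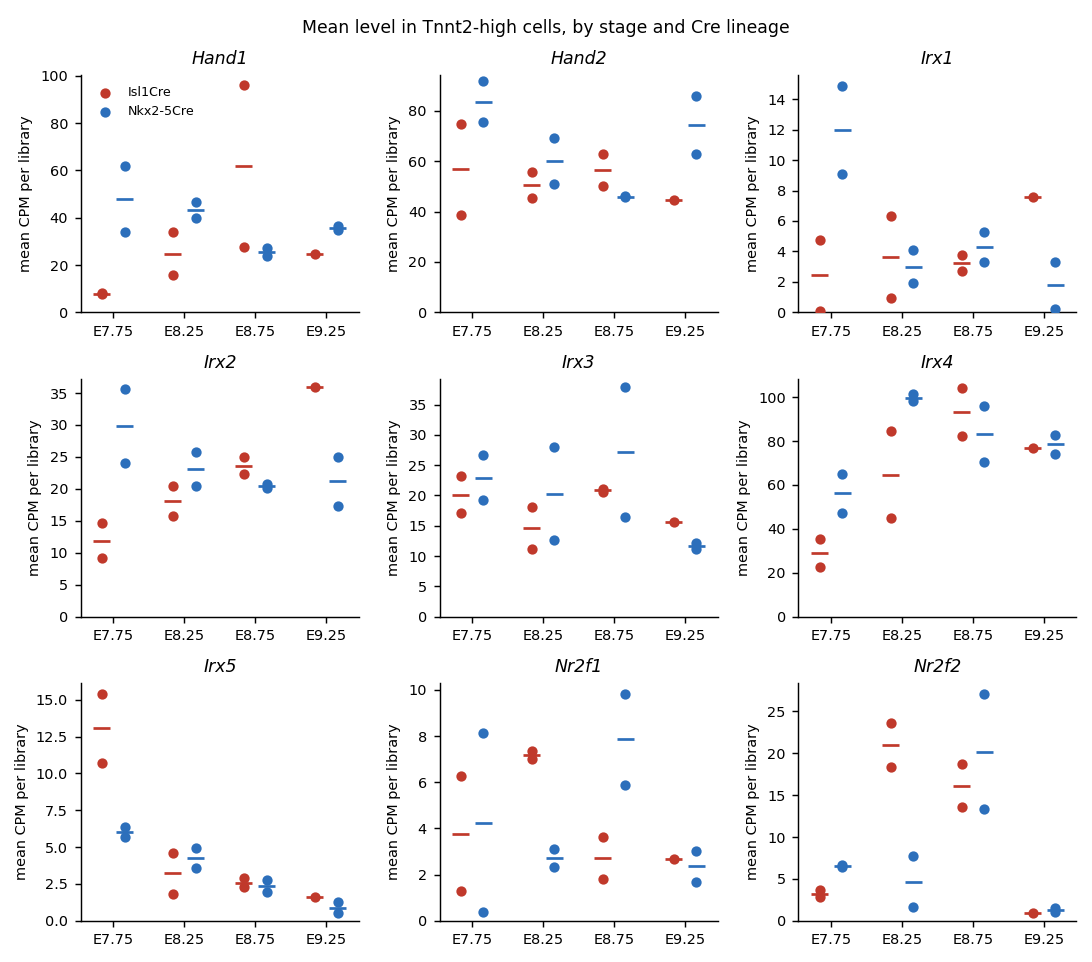
Mean CPM per library of the 9 genes in Tnnt2-high cells (vertical axes, CPM) by embryonic stage (horizontal axes), with each point 1 library, bars at the group means and Isl1Cre drawn left of Nkx2-5Cre. Hand1 lies near 8 CPM in both Isl1Cre libraries at E7.75, and Nr2f2 lies between 0.97 and 1.50 CPM in the 3 libraries at E9.25.

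Hand1 was nearly missing from Tnnt2-high Isl1Cre cells at E7.75. Its mean level there was 7.71 and 7.99 CPM in the 2 Isl1Cre libraries, against 33.77 and 61.87 CPM in the 2 Nkx2-5Cre libraries. The groups did not overlap, and 1 cell held 100% and 91.5% of the Hand1 signal of the Isl1Cre libraries. Hand1 was detected in 6.2% (exact 95% interval 0.16 to 30.23%) and 13% of Isl1Cre cells, against 89.5% and 91.9% of Nkx2-5Cre cells. At 20000 counts per cell the shares were 7.1% (1 of 14 cells, interval 0.2 to 33.9%) and 4.5% (1 of 22 cells, 0.1 to 22.8%) in Isl1Cre, against 47.2% (17 of 36 cells, 30.4 to 64.5%) and 48.4% (15 of 31 cells, 30.2 to 66.9%) in Nkx2-5Cre. These intervals cover counting error only. The log2 difference was -2.36 ± 0.49 (SE; limma, adjusted p = 0.00686). It missed the threshold without Nkx2-5Cre E7.75 replicate 2 (-1.88, adjusted p = 0.0907), with no filter on low values (adjusted p = 0.0593), and with cells drawn down to 5000 counts, where 1 count is worth 200 CPM (0.05, adjusted p = 1.0).

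From E8.25 on, Hand1 passed no test between the lineages. At E8.25, Hand1 had 33.77 and 15.58 CPM in Isl1Cre, against 46.46 and 40.04 CPM in Nkx2-5Cre libraries. At E8.75 it had 27.46 and 96.09 CPM in Isl1Cre, against 27.23 and 24.01 CPM in Nkx2-5Cre, and 1 cell gave 55.6% of the highest of these. At E9.25 it had 24.82 CPM in the Isl1Cre library, against 34.69 and 36.34 CPM in Nkx2-5Cre. The increase per day in Isl1Cre, 1.14 ± 0.37 on the log2 scale (SE), had an adjusted p of 0.0521 in limma and is not counted as a change. It passed in 9 of 28 alternatives, among them edgeR (adjusted p = 0.0127), DESeq2 (adjusted p = 0.00276) and leaving out Isl1Cre E9.25 replicate 1 (2.50, adjusted p = 0.00154). The difference of slopes was 1.51 ± 0.49 (adjusted p = 0.192). Without Isl1Cre E9.25 replicate 1 it was 2.88 (adjusted p = 0.00728). That value set an Isl1Cre slope over E7.75 to E8.75 against an Nkx2-5Cre slope over E7.75 to E9.25, which are unlike spans.

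Over all libraries, Hand1 was detected in 498 of 926 cells (53.8%) and Hand2 in 701 (75.7%). The level of Hand2 lay between 38.81 and 74.54 CPM over the 7 Isl1Cre libraries, against 45.83 to 91.69 CPM over the 8 Nkx2-5Cre libraries, and these ranges overlapped. At E7.75 Hand2 had 38.81 and 74.54 CPM in Isl1Cre, against 75.35 and 91.69 CPM in Nkx2-5Cre. The difference was -0.57 ± 0.30 on the log2 scale (SE; limma, adjusted p = 0.244). The slope per day was -0.15 ± 0.23 in Isl1Cre and -0.19 ± 0.19 in Nkx2-5Cre, neither past the threshold. In the Isl1Cre libraries at E7.75, where Hand1 was rare, Hand2 was detected in 62.5% and 78.3% of cells.

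Irx4, the ventricular Iroquois factor, was detected in 667 of 926 cells (72.0%). In Isl1Cre its level was 35.49 and 22.44 CPM at E7.75, 44.72 and 84.37 CPM at E8.25, 82.29 and 104.33 CPM at E8.75, and 76.69 CPM at E9.25. In Nkx2-5Cre it was 65.22 and 47.08 CPM at E7.75, 101.33 and 98.18 CPM at E8.25, 96.03 and 70.44 CPM at E8.75, and 82.85 and 74.10 CPM at E9.25. The E7.75 libraries were the lowest of each lineage, and in Nkx2-5Cre the highest were those of E8.25. The change per day was 0.95 ± 0.23 in Isl1Cre (log2, SE; limma, adjusted p = 0.0114) and 0.23 ± 0.19 in Nkx2-5Cre (adjusted p = 0.488), with a difference of 0.72 ± 0.30 that missed the threshold (adjusted p = 0.333). The Isl1Cre slope passed without each library in turn. It was 0.37 without the E7.75 libraries (adjusted p = 0.594) and -0.09 in cells with at least 4000 CPM of Tnnt2 (adjusted p = 0.924), a fit that kept 11 of 15 libraries and also held none of E7.75.

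Over both lineages, Irx4 was 0.91 ± 0.22 higher at E8.25 than at E7.75 on the log2 scale (SE; limma, adjusted p = 0.00786). Without Isl1Cre E8.25 replicate 2 the step was 0.68 (adjusted p = 0.0555). At 20000 counts per cell, Irx4 was detected in 38.8% and 52.8% of Isl1Cre and 67.5% and 57.7% of Nkx2-5Cre cells at E8.25, against 42.9% and 27.3% of Isl1Cre and 52.8% and 25.8% of Nkx2-5Cre cells at E7.75. These shares overlapped between the stages. The lineage difference of Irx4 at E7.75 was -0.91 ± 0.31 (adjusted p = 0.0745). Of its 25 alternatives, 5 passed.

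Irx2 was detected in 348 of 926 cells (37.6%). In Isl1Cre it had 9.17 and 14.63 CPM at E7.75, 20.50 and 15.69 CPM at E8.25, 22.25 and 25.02 CPM at E8.75, and 35.90 CPM at E9.25. In Nkx2-5Cre it had 35.69 and 23.99 CPM at E7.75, 20.38 and 25.73 CPM at E8.25, 20.68 and 20.10 CPM at E8.75, and 17.34 and 25.03 CPM at E9.25. The Isl1Cre values were lowest at E7.75 and highest at E9.25, and the 2 highest values of Nkx2-5Cre included 1 at E7.75 and 1 at E8.25. At E7.75 Irx2 was lower in Isl1Cre by a log2 difference of -1.22 ± 0.37 (SE; limma, adjusted p = 0.0493), a call at the edge of the threshold. Of the 15 fits that left out 1 library each, 1 kept the call (adjusted p 0.017 to 0.208), and it was lost in 23 of all 25 alternatives. The change per day in Isl1Cre was 0.99 ± 0.28 (adjusted p = 0.0258). That call was lost in 9 of 28 alternatives, among them leaving out Isl1Cre E9.25 replicate 1 (adjusted p = 0.104) or Isl1Cre E7.75 replicate 1 (adjusted p = 0.0669), edgeR and DESeq2.

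Irx5 was a low gene, detected in 114 of 926 cells (12.3%), and it fell over the stages in both lineages. In Isl1Cre it had 10.71 and 15.39 CPM at E7.75, 1.84 and 4.59 CPM at E8.25, 2.87 and 2.26 CPM at E8.75, and 1.63 CPM at E9.25. In Nkx2-5Cre it had 6.37 and 5.71 CPM at E7.75, 3.59 and 4.97 CPM at E8.25, 2.76 and 1.98 CPM at E8.75, and 0.50 and 1.29 CPM at E9.25. The levels at E7.75 were the highest of each lineage, but 1 cell held 77.4% and 70.6% of them in the Isl1Cre libraries. The change per day was -1.49 ± 0.45 in Isl1Cre (log2, SE; limma, adjusted p = 0.0333) and -1.29 ± 0.37 in Nkx2-5Cre (adjusted p = 0.0277). The Isl1Cre call was lost in 10 of 27 alternatives, among them leaving out Isl1Cre E7.75 replicate 2 (adjusted p = 0.0617) or Isl1Cre E8.25 replicate 2 (adjusted p = 0.0576), and edgeR (adjusted p = 0.838). The Nkx2-5Cre call was lost in 10 of 27, among them leaving out any 1 of the 4 Nkx2-5Cre libraries at E7.75 and E9.25 (adjusted p 0.0697 to 0.171).

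Irx1 and Irx3 passed no test between lineages or over stages, though a few alternative settings gave a call. Irx1 was detected in 184 of 926 cells (19.9%), and its level lay between 0.11 and 7.56 CPM in Isl1Cre libraries, against 0.24 to 14.88 CPM in Nkx2-5Cre libraries. Its lineage difference at E7.75 was -2.32 ± 0.84 on the log2 scale (SE; limma, adjusted p = 0.0926), with 0.11 and 4.76 CPM in Isl1Cre, against 14.88 and 9.08 CPM in Nkx2-5Cre. Irx3 was detected in 386 cells (41.7%), between 11.15 and 23.28 CPM in Isl1Cre, against 11.14 to 37.95 CPM in Nkx2-5Cre libraries. The ranges of both genes overlapped between the lineages. Among alternatives, the Irx1 difference at E7.75 passed in 2 of 25. The Irx1 slope passed in 1 of 28 in Isl1Cre and 3 of 28 in Nkx2-5Cre, and the difference of its slopes in 1 of 28. For Irx3, the slope in Nkx2-5Cre passed in 1 of 28 and the step from E7.75 to E8.25 in 1 of 25, each with all kept cells. Irx6, the remaining gene of the chromosome 8 cluster, reached at most 0.05 CPM in any library of Tnnt2-high cells.

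Nr2f2 fell between E8.75 and E9.25 in Tnnt2-high cells. At E9.25 it had 0.97 CPM in Isl1Cre and 1.02 and 1.50 CPM in Nkx2-5Cre libraries, against 13.64 and 18.67 CPM in Isl1Cre and 13.31 and 27.10 CPM in Nkx2-5Cre libraries at E8.75. No library of E9.25 reached any of E8.75. The log2 step was -3.11 ± 0.48 (SE; limma, adjusted p = 0.00511). It passed in 25 of 26 alternatives, with steps of -3.36 to -1.3 over all 26. It missed the threshold with cells drawn down to 5000 counts (-3.22, adjusted p = 0.453). The alternatives left out each library in turn except Isl1Cre E9.25 replicate 1. Without that one, the only library of its group, the step was not fitted. At 20000 counts per cell, Nr2f2 was detected in 1.2%, 2.8% and 4.2% of cells at E9.25, against 8.3%, 3.4%, 14.6% and 21.1% at E8.75, where the share of Isl1Cre E8.75 replicate 2, at 3.4%, lay within the later range. In the list of 20 atrial and inflow genes, 14 of 17 tested also had differences below 0 at this step and 3 above. Of these 17 genes, 2 passed as lower and 1 as higher. The list's median was -0.69, beside 0.01 over all genes. The part of the makeup of the cells in this step was not tested.

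Nr2f2 did not pass the test between the lineages at any stage. At E8.25 it had 23.58 and 18.34 CPM in Isl1Cre, against 1.59 and 7.72 CPM in Nkx2-5Cre libraries, which did not overlap. The difference was 2.18 ± 0.61 on the log2 scale (SE; limma, adjusted p = 0.127). At E7.75 it had 2.79 and 3.65 CPM in Isl1Cre, against 6.67 and 6.37 CPM in Nkx2-5Cre (-0.81 ± 0.61, adjusted p = 0.436). The change per day was -0.75 ± 0.46 in Isl1Cre and -0.64 ± 0.38 in Nkx2-5Cre, neither past the threshold. Without Isl1Cre E9.25 replicate 1, the only library of its group, the Isl1Cre slope was 1.95 (adjusted p = 0.0278). It passed downward with all kept cells (-1.82, adjusted p = 0.00266) and without the E7.75 libraries (-3.43, adjusted p = 0.00801).

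Nr2f1 was detected in 108 of 926 cells (11.7%). Its level lay between 1.29 and 7.37 CPM in Isl1Cre libraries, against 0.37 to 9.83 CPM in Nkx2-5Cre libraries, and no test between lineages or stages passed. In the 2 Nkx2-5Cre libraries at E7.75 it was detected in 50% and 2.7% of cells, and at 20000 counts per cell in 2.8% and 3.2%. In Isl1Cre E7.75 replicate 1, 1 cell held 100% of its signal.

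**Figure D2:**
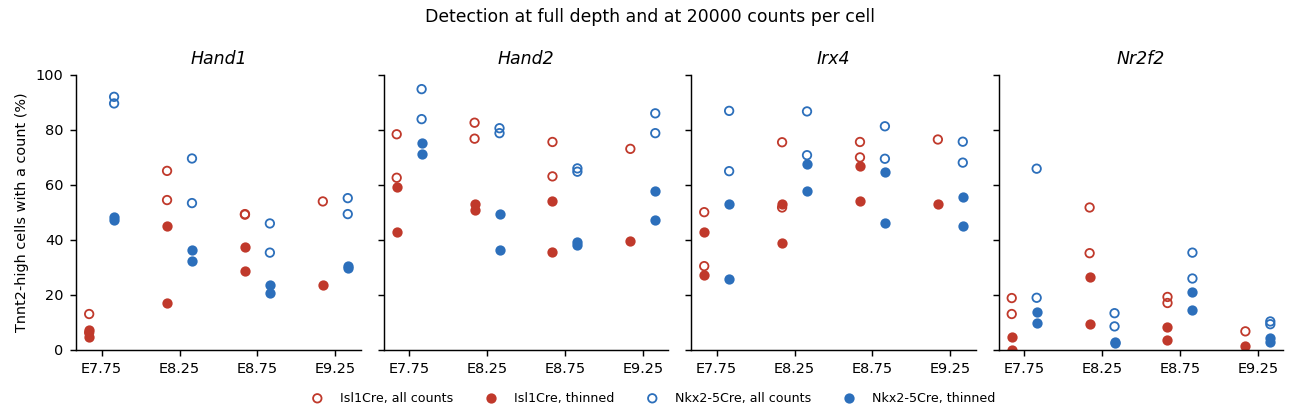
Share of Tnnt2-high cells with a count of Hand1, Hand2, Irx4 or Nr2f2 (percent, vertical axis) by embryonic stage, with each point 1 library, open at full depth and filled at 20000 counts per cell, and Isl1Cre left of Nkx2-5Cre. Hand1 at E7.75 stands at 7.1% and 4.5% in Isl1Cre, against 47.2% and 48.4% in Nkx2-5Cre libraries at 20000 counts.

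The list of 20 partners and regulators of these factors gives the setting. Averaged over stages, 2 of 20 were higher and 2 lower in Isl1Cre, where 2.97% of all genes passed. Tbx5, a T-box factor of the inflow and left ventricle, was higher by 0.65 ± 0.15 and Nkx2-5 by 0.39 ± 0.09 on the log2 scale (SE; limma, adjusted p = 0.0265 for each). Isl1, a factor of second heart field progenitors, was lower by a difference of -1.32 ± 0.28 (adjusted p = 0.0186), and Smyd1, a muscle methyltransferase gene, by -0.66 ± 0.15 (adjusted p = 0.0291). The Cre alleles are named for Isl1 and Nkx2-5. For these 2 genes an effect of the allele cannot be told apart from lineage and was not tested. Over the stages, 2 of 20 rose and 5 fell in Isl1Cre, where 13.8% of all genes passed, and 1 rose and 6 fell in Nkx2-5Cre, where 14.1% did. Hopx, a homeodomain-only factor, rose in Isl1Cre by 1.53 ± 0.28 and in Nkx2-5Cre by 0.89 ± 0.23 per day. Gata5 and Gata6, zinc-finger factors, fell per day in both lineages, Gata5 with -1.35 ± 0.20 in Isl1Cre and -0.64 ± 0.16 in Nkx2-5Cre. The median change per day of the list was -0.30 in Isl1Cre and -0.17 in Nkx2-5Cre, beside 0.05 and 0.00 over all genes.

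Within libraries, Irx4 and Irx2 were higher and Nr2f2 was lower in Tnnt2-high than in Tnnt2-low cells. The comparison used 10 libraries with at least 10 cells in each class, 541 Tnnt2-high and 376 Tnnt2-low cells, with the library as a block. Of the 9 genes 3 passed, where 21.8% of 11282 genes tested passed, and their median log2 difference was 0.49, beside -0.01 over all genes. The 8 endothelial markers summed to 63.2 to 272.4 CPM in Tnnt2-high and 217.0 to 1509.7 CPM in Tnnt2-low cells of Isl1Cre libraries, and to 108.8 to 189.1 CPM in Tnnt2-high and 228.3 to 1661.8 CPM in Tnnt2-low cells of Nkx2-5Cre libraries. The 8 endoderm markers had a median sum of 38.7 CPM in Tnnt2-high and 466.7 CPM in Tnnt2-low cells of Isl1Cre libraries. In Nkx2-5Cre libraries the medians went the other way, with 59.0 CPM in Tnnt2-high and 42.7 CPM in Tnnt2-low cells. The highest sums there were 500.9 CPM in Tnnt2-high and 1268.6 CPM in Tnnt2-low cells. The 5 blood markers reached at most 219.4 CPM in Tnnt2-high and 170.9 CPM in Tnnt2-low cells of Isl1Cre libraries, and 1206.2 CPM in Tnnt2-high and 10837.0 CPM in Tnnt2-low cells of Nkx2-5Cre libraries. The part of these markers' cell types in the differences was not tested.

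Irx4 was higher in Tnnt2-high cells in 10 of 10 libraries. It had 35.49 against 6.25 CPM and 22.44 against 8.15 CPM in the Isl1Cre E7.75 libraries, and 44.72 against 5.53 CPM and 84.37 against 12.08 CPM in those of E8.25, with Tnnt2-high cells named first. In Nkx2-5Cre it had 65.22 against 20.07 CPM and 47.08 against 15.85 CPM at E7.75, 101.33 against 24.63 CPM and 98.18 against 2.07 CPM at E8.25, and 82.85 against 5.39 CPM and 74.10 against 4.13 CPM at E9.25. The lowest Tnnt2-high library, at 22.44 CPM, lay below the highest Tnnt2-low one, at 24.63 CPM, but within each library the classes were apart. The log2 difference was 2.76 ± 0.30 (SE; limma, adjusted p = 2.27e-06), past the threshold in 17 of 17 alternatives.

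Irx2 was higher in Tnnt2-high cells in 9 of 10 libraries, by 2.27 ± 0.41 on the log2 scale (SE; limma, adjusted p = 0.000514), also past the threshold in 17 of 17 alternatives. The exception was Isl1Cre E7.75 replicate 1, with 9.17 CPM in Tnnt2-high and 15.10 CPM in Tnnt2-low cells. In the other libraries Irx2 lay between 14.63 and 35.69 CPM in Tnnt2-high cells, against 0.08 to 10.18 CPM in Tnnt2-low cells.

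Nr2f2 was lower in Tnnt2-high cells in 10 of 10 libraries. It had 2.79 against 24.16 CPM and 3.65 against 36.52 CPM in the Isl1Cre E7.75 libraries, and 23.58 against 52.18 CPM and 18.34 against 34.76 CPM in those of E8.25, Tnnt2-high cells first. In Nkx2-5Cre it had 6.67 against 16.93 CPM and 6.37 against 7.80 CPM at E7.75, 1.59 against 13.26 CPM and 7.72 against 39.67 CPM at E8.25, and 1.02 against 6.63 CPM and 1.50 against 13.18 CPM at E9.25. The gap was smallest in Nkx2-5Cre E7.75 replicate 2. The log2 difference was -1.77 ± 0.30 (SE; limma, adjusted p = 0.00024), and it missed the threshold in 1 of 17 alternatives, with cells drawn down to 5000 counts (adjusted p = 0.251).

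The remaining members did not pass. Irx5 had a difference of -1.11 ± 0.43 (log2, SE; limma, adjusted p = 0.0775), and 6 of 17 alternatives passed, among them edgeR (adjusted p = 0.0123). Hand2 differed by -0.27 ± 0.15 (adjusted p = 0.207) and Hand1 by 0.49 ± 0.43 (adjusted p = 0.462). In the Nkx2-5Cre E9.25 libraries Hand1 had 34.69 and 36.34 CPM in Tnnt2-high cells, against 4.95 and 1.51 CPM in Tnnt2-low cells. Over the 10 libraries Hand1 was higher in Tnnt2-high cells in 4 and lower in 6, the 4 Isl1Cre libraries and replicate 1 of Nkx2-5Cre at E7.75 and at E8.25, and a difference of this contrast between the lineages was not tested. Of the ventricular list, 9 of 12 tested genes were higher in Tnnt2-high cells. Of the partner list, 7 of 20 were higher, among them Tbx5 (2.12 ± 0.24) and Mef2c, a MADS-box factor (1.76 ± 0.16). The 3 that were lower were Isl1, Twist1 and Tcf4. Of the relatives of the 9 genes, 2 of 5 tested were lower, Twist1 (-2.09 ± 0.29) and Twist2 (-1.11 ± 0.31), which are helix-loop-helix factors of mesenchyme.

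**Figure D3:**
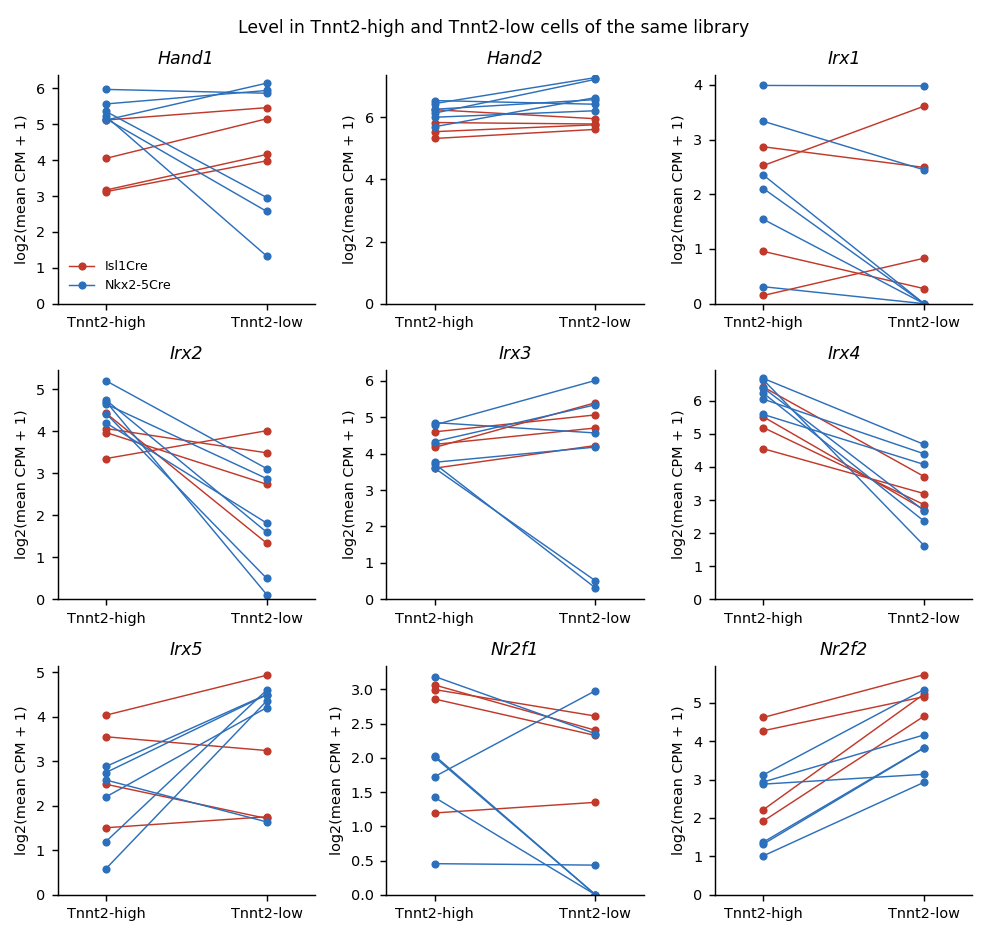
Level of each of the 9 genes, as log2(mean CPM + 1), in Tnnt2-high cells (left) and Tnnt2-low cells (right) of the same library, joined by a line for each of 10 libraries. Irx4 is higher in Tnnt2-high cells in 10 of 10 libraries, and Nr2f2 is lower in 10 of 10.

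Hand1 and Hand2 RNA were found together slightly more often than their shares alone would give. Of 926 cells, 412 held both, 82.7% of the Hand1 cells and 58.8% of the Hand2 cells. With the share of each gene in each library, 384.9 cells would hold both if the genes were detected independently, a ratio of 1.070. Over 14 libraries with enough cells the ratio lay between 0.97 and 1.28, and it was above 1 in 12. Hand1 without Hand2 was found in 86 cells and Hand2 without Hand1 in 289. By group, both were detected in 10.3%, 54.7%, 35.7% and 43.8% of Isl1Cre cells from E7.75 to E9.25, against 84.0%, 52.2%, 27.6% and 44.4% of Nkx2-5Cre cells. Counting only levels of at least 20 or 50 CPM, the ratio was 1.031 and 0.971. Co-detection of any pair also grows with the depth of a cell, and among the 845 cells with at least 20000 counts the ratio was 1.026.

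With any count scored at full depth, Irx4 and the COUP-TF genes had ratios just below 1. Irx4 and Nr2f2 were found together in 142 cells, 70.3% of the Nr2f2 cells and 21.3% of the Irx4 cells. The expected number was 143.5, a ratio of 0.989, with 13 libraries between 0.71 and 1.26 and 9 of them below 1. Irx4 and Nr2f1 were found together in 77 cells, where 79.5 were expected, a ratio of 0.969. Among cells with at least 20000 counts the ratios were 0.939 for Nr2f2, below 1 in 10 of 13 libraries, and 0.907 for Nr2f1.

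At higher levels, with thresholds chosen after seeing the data, Irx4 met the COUP-TF genes in fewer cells than expected. With both genes at 20 CPM or more, Irx4 and Nr2f2 met in 26 cells where 43.7 were expected (ratio 0.594), below 1 in 6 of 7 libraries. At 50 CPM or more they met in 5 cells where 18.7 were expected (0.267), below 1 in 4 of 4 libraries. For Irx4 and Nr2f1 the ratios were 0.754 and 0.542. With each cell drawn down to 20000 counts the ratio was 0.727 for Irx4 and Nr2f2 (26 cells, 35.7 expected) and 0.618 for Irx4 and Nr2f1 (14 cells, 22.7 expected). In a cell with fewer than 20000 counts, 1 count is worth more than 50 CPM and so passes either threshold. The part of such shallow cells in the ratios at 20 and 50 CPM was not tested. None of the ratios carries a test.

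Over all libraries, pairs within 1 family or cluster had ratios above 1, again with no test. Nr2f1 and Nr2f2 were together in 50 cells where 34.2 were expected (ratio 1.460), and at 20 CPM or more in 20 cells where 5.5 were expected (3.605). Irx1 and Irx2, neighbours on chromosome 13, met in 117 cells where 81.6 were expected (1.434), above 1 in 12 of 12 libraries. Irx2 and Irx4 met in 283 cells where 253.3 were expected (1.117), but the ratio was below 1 in 3 of 15 libraries, down to 0.33, and 1.061 among cells with at least 20000 counts. Irx1 and Irx4 met in 163 cells where 137.1 were expected (1.189), and Irx3 and Irx5, neighbours on chromosome 8, in 77 where 60.1 were expected (1.281). With cells drawn down to 20000 counts, Irx3 and Irx5 met in 8 cells where 7.6 were expected (1.049). The ratio of 1.434 for Irx1 and Irx2 was 1.355 among cells with at least 20000 counts, and their ratio at 20 CPM or more was 2.395.

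**Figure D4:**
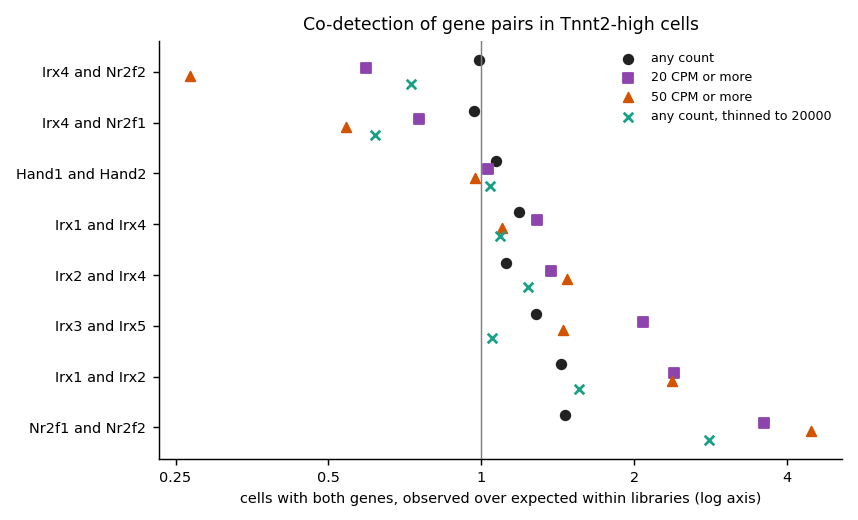
Observed over expected number of Tnnt2-high cells holding both genes of each pair (log axis), for any count, for at least 20 and 50 CPM of both genes and for any count in cells thinned to 20000 counts, where 1 means as many as independent detection within libraries gives. Irx4 and Nr2f2 go to 0.594 and 0.267 at the higher thresholds, and Hand1 and Hand2 stay at 1.031 and 0.971.

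The level of Irx4 was lower in cells with Nr2f2 at 20 CPM or more, a class also chosen after seeing the data. In 6 libraries with 5 or more such cells, Irx4 averaged 31.3 ± 14.6 CPM in them and 88.9 ± 19.5 CPM in the other Tnnt2-high cells (SD, n = 6). It had 21.7 against 54.6 CPM and 22.5 against 94.5 CPM in the Isl1Cre E8.25 libraries, and 57.5 against 84.9 CPM and 32.6 against 109.6 CPM in those of Isl1Cre E8.75. In the Nkx2-5Cre E8.75 libraries it had 35.9 against 104.0 CPM and 17.7 against 85.6 CPM. It was lower in 6 of 6 libraries, by -1.55 ± 0.24 on the log2 scale (SE; exact sign permutation test, two-sided p = 0.0312, the smallest that 6 libraries can give). Adjusted over the 24 comparisons of this kind, the p was 0.15, so that it does not pass. A p at this floor could pass only if most of the 24 were as small, so that the adjusted test could hardly decide here.

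In the same cells Irx2 averaged 6.3 ± 7.9 CPM, against 23.0 ± 3.2 CPM in the others (lower in 6 of 6), and Nr2f1 24.3 ± 25.5 CPM, against 3.1 ± 2.4 CPM (higher in 6 of 6). Each adjusted p was again 0.15 in the exact test, with the same floor. The median count per cell was lower in the Nr2f2 class in 5 of the 6 libraries, as low as 19535 against 108768 in Isl1Cre E8.75 replicate 2. The Tnnt2 level, Nr2f2 class first, was 3900 against 5136 CPM and 3673 against 5517 CPM in the Isl1Cre E8.25 libraries. It was 6284 against 5831 CPM and 5445 against 6070 CPM in those of Isl1Cre E8.75. In the Nkx2-5Cre E8.75 libraries it was 6369 against 7158 CPM and 6364 against 6891 CPM. The part of depth and of the Tnnt2 level in these differences was not tested.

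Cells with Hand1 at 20 CPM or more had 103.2 ± 38.6 CPM of Irx4, against 69.1 ± 14.5 CPM in the other cells of 13 libraries (SD; higher in 12 of 13; exact sign permutation p = 0.00977, adjusted over 24 comparisons 0.117). Irx2 had 15.7 ± 9.4 CPM in them, against 27.4 ± 8.9 CPM (lower in 10 of 13; exact p = 0.00513, adjusted 0.117). Hand2 was at 60.3 ± 20.2 CPM in cells with Hand1 and 62.7 ± 22.5 CPM in the others. None of these passed after adjustment.

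Tnnt2-high cells with Irx4 but no COUP-TF count had higher levels of Nppa and of 4 ventricular genes than cells with a COUP-TF count but no Irx4. The comparison took 210 Irx4-only and 57 Nr2f-only cells in 7 libraries with at least 5 cells of each class, and the median count per cell was higher in the Irx4-only class in 4 of the 7. Of 10832 genes 22 passed (0.203%), 12 higher and 10 lower in Irx4-only cells, and the median log2 difference of all genes was 0.14. Of the 6 other members tested, 0 passed, although all 6 differences were above 0 with a median of 1.52. Irx2 had 2.26 ± 0.79, Irx3 1.67 ± 0.59 and Irx1 1.61 ± 0.57 (log2, SE; limma, adjusted p = 0.392 each), and Hand1 1.33 ± 0.64 (adjusted p = 0.522).

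Nppa, the atrial natriuretic peptide gene, which early chamber myocardium of atria and ventricles expresses, had the smallest adjusted p. It had 6.90 CPM in Irx4-only and 1.26 CPM in Nr2f-only cells of Isl1Cre E7.75 replicate 2, 196.56 against 27.50 CPM and 90.40 against 26.33 CPM in the Isl1Cre E8.25 libraries, and 534.02 against 40.16 CPM in Isl1Cre E8.75 replicate 2. In Nkx2-5Cre it had 619.62 against 47.47 CPM in E8.25 replicate 2, and 585.87 against 53.12 CPM and 387.30 against 113.47 CPM in the E8.75 libraries. It was higher in 7 of 7 libraries, by 2.66 ± 0.28 on the log2 scale (SE; limma, adjusted p = 8.2e-05).

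Of the ventricular list, 4 of 11 tested genes were higher in Irx4-only cells, none was lower, and the list's median was 1.00. These were Myh7 with 1.19 ± 0.15 and Myl2 with 1.33 ± 0.23, myosin genes of the ventricle, Myl3 with 0.94 ± 0.16, a ventricular light chain gene, and Nppb with 1.97 ± 0.39, a second natriuretic peptide gene (log2, SE). Hey2, a ventricular repressor of the Hairy family, had 2.71 ± 0.65 and missed the threshold (limma, adjusted p = 0.124). Acta1, skeletal alpha-actin, was also higher, with 1134.90 CPM in Irx4-only and 535.64 CPM in Nr2f-only cells on average.

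Of the atrial and inflow list, 2 of 18 tested genes were lower in Irx4-only cells and 2 higher, with a median of -0.86. The lower ones were Wnt2, a Wnt ligand of the inflow pole, with 160.40 ± 72.02 CPM in Irx4-only and 328.02 ± 111.62 CPM in Nr2f-only cells (SD, n = 7), and Stard10, a lipid transfer protein gene, with a log2 difference of -2.17 ± 0.44. Wnt2 was lower in 7 of 7 libraries. The higher ones were Nppa and Myl1, a light chain gene. Igfbp5, a binding protein of insulin-like growth factors, was lower with 147.83 ± 70.49 CPM in Irx4-only and 399.41 ± 202.14 CPM in Nr2f-only cells, and Sfrp5, a secreted Wnt inhibitor of the inflow, with 42.36 ± 48.98 and 107.80 ± 74.09 CPM. Of the outflow list 0 of 19 passed, and of the partner list 0 of 20. Leaving out 1 library at a time gave 7 to 40 called genes, edgeR gave 55, and with cells drawn down to 5000 counts 0 passed in the 3 libraries left.

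Hand1-only cells had less Isl1, Fgf8, Tdgf1 and Nrp2 RNA and more Cited1 RNA than Hand2-only cells, and no other member passed the test. The comparison took 77 Hand1-only and 217 Hand2-only cells in 9 libraries, with 6 to 12 and 13 to 36 cells in each. The median count per cell was higher in the Hand1-only class in 4 of the 9. The part of depth in the differences was not tested. Of 11271 genes 98 passed (0.869%), 37 higher and 61 lower in Hand1-only cells, and the median of all genes was -0.15. The number was 41 without Isl1Cre E8.75 replicate 2, 52 without Nkx2-5Cre E8.25 replicate 2 and up to 106 on leaving out another library, 2 with no filter on low values and 1 with cells drawn down to 5000 counts. Of the 7 other members 0 passed, with a median of -0.01. The largest of these differences was that of Nr2f1, with -1.15 ± 0.58 (log2, SE; limma, adjusted p = 0.429), and Irx4 had 0.26 ± 0.21 (adjusted p = 0.661).

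Isl1 was lower in Hand1-only cells in 9 of 9 libraries. It had 0.00 against 14.88 CPM in Isl1Cre E8.25 replicate 1, 0.00 against 4.67 CPM and 1.88 against 9.01 CPM in the Isl1Cre E8.75 libraries, and 0.00 against 7.21 CPM in that of Isl1Cre E9.25. In Nkx2-5Cre it had 0.34 against 8.73 CPM and 2.97 against 30.30 CPM at E8.25, 0.31 against 36.74 CPM and 1.70 against 14.50 CPM at E8.75, and 8.64 against 37.26 CPM in E9.25 replicate 2. Hand1-only cells stayed below 10 CPM in each library. The log2 difference was -2.91 ± 0.51 (SE; limma, adjusted p = 0.00265).

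Of the outflow and right ventricle list, 4 of 18 tested genes were lower in Hand1-only cells, none was higher, and 17 of the 18 differences were below 0 (median -0.89). Besides Isl1 these were Fgf8, a growth factor gene of the second heart field, with 13.53 ± 11.19 CPM in Hand1-only and 47.72 ± 24.18 CPM in Hand2-only cells (SD, n = 9; lower in 9 of 9), Tdgf1, the Cripto co-receptor gene of the outflow, with 197.44 ± 157.94 and 573.77 ± 306.72 CPM (lower in 8 of 9), and Nrp2, a semaphorin receptor gene, with 34.70 ± 38.40 and 98.92 ± 44.24 CPM (lower in 8 of 9). Bmp4, an outflow ligand gene, had -1.83 ± 0.49 on the log2 scale and missed the threshold (limma, adjusted p = 0.0711). Of the partner list, 2 of 19 were lower, Isl1 and Zfpm1, which encodes a GATA cofactor.

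Higher in Hand1-only cells was Cited1, a transcriptional coactivator gene, with 149.43 ± 90.43 CPM in Hand1-only and 35.69 ± 19.84 CPM in Hand2-only cells (SD, n = 9), in 9 of 9 libraries. Its log2 difference was 2.06 ± 0.28 (SE; limma, adjusted p = 0.000127). Cdo1, a cysteine dioxygenase gene, had 110.59 ± 63.32 and 31.50 ± 20.96 CPM, and Thbs4, a thrombospondin gene, 320.02 ± 144.88 and 146.21 ± 62.48 CPM in the same order, each higher in 9 of 9. The ventricular list was split, with Tnni3, adult cardiac troponin I, higher (0.85 ± 0.13) and Myh7 lower (-0.58 ± 0.12), and 10 of its 12 tested genes not called. Of the atrial and inflow list 1 of 16 was higher, Myl1 (0.71 ± 0.15). Cald1, the caldesmon gene, was lower in 9 of 9 libraries, with 191.67 ± 95.57 CPM in Hand1-only and 479.48 ± 181.02 CPM in Hand2-only cells.

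**Figure D5:**
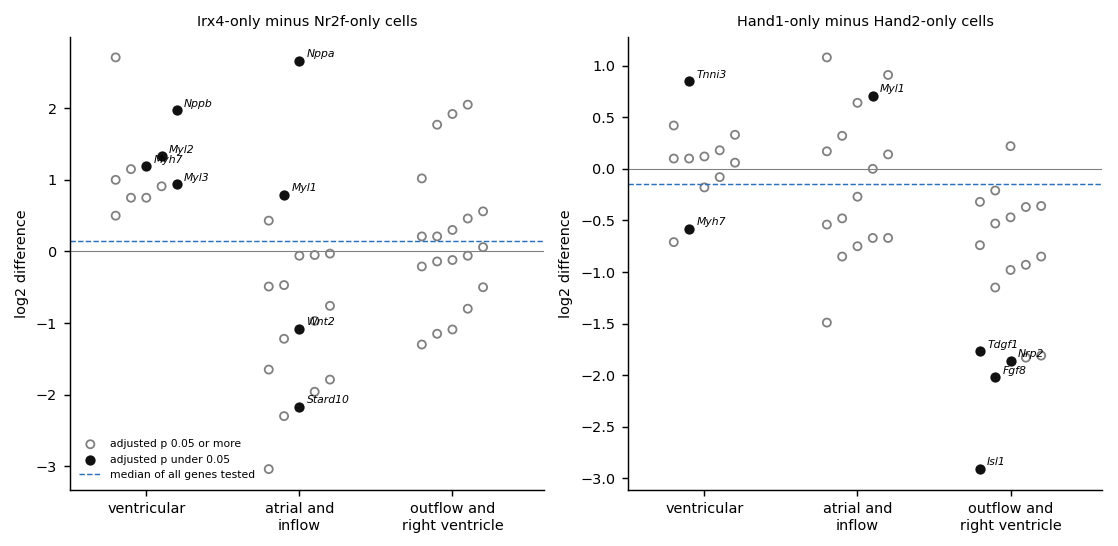
Log2 difference of each gene of the ventricular, atrial and inflow, and outflow and right ventricle lists between Irx4-only and Nr2f-only cells (left) and between Hand1-only and Hand2-only cells (right), with filled points past an adjusted p of 0.05 and a dashed line at the median of all genes tested. All 11 ventricular genes lie above 0 on the left, and 17 of 18 outflow genes lie below 0 on the right.

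Across all kept cells of the 15 libraries, the genes whose mean level followed each member most closely were ranked by Pearson correlation of log2(CPM + 1) among 7608 genes of at least 10 CPM. These points share lineage, stage and the share of Tnnt2-high cells, and they carry no test. For Irx4 they were Hspb2 (r = 0.98), Actn2 (0.97) and Cox7a1 (0.97), which encode a small heat shock protein, sarcomeric alpha-actinin and a muscle form of a cytochrome oxidase subunit. For Hand1 they were Shc1 (0.89), Sepp1 (0.87) and Rnf5 (0.83), and for Hand2 Clk4 (0.79), Rps19bp1 (0.78) and B4galt6 (0.76). For Irx2 they were Mcam (0.87), Mical3 (0.87) and Grb2 (0.84), and for Irx5 Rab11fip1 (0.90), Pard6g (0.88) and 2700094K13Rik (0.87). For Nr2f2 they were Rpl14-ps1 (0.86), Nmt2 (0.85) and Ube2v2 (0.83), and for Nr2f1 A130010J15Rik (0.84), Sec23a (0.76) and Rgs12 (0.74). Irx1 had Celf1 (0.84), Ppfia1 (0.81) and Nsmce4a (0.79), and Irx3 had 1500009L16Rik (0.88), Rybp (0.87) and Vps54 (0.85).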

How the data were processed

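Single cells were made into libraries with an oligo(dT) primer carrying a cell barcode and a molecular identifier and a modified Smart-seq2 protocol with capture of 3′ ends, per the labels' protocols. Tools listed in the submitters' processing notes are HTSeq, TopHat2 2.0.12 and CASAVA 1.8, with mm10 as the build. The authors deposited CPM per gene and cell, from which whole counts were recovered: in each cell, 100% of the values worth 20 counts or fewer lay within 0.1 of a whole count. The sources used here do not say whether these counts are reads or molecular identifiers. Total counts per library were 8165519 to 38321142, and no cell name was shared between libraries. No doublet removal was applied, and the labels do not mention one.

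The replicate is the library. Its value is the mean CPM over cells, scaled by TMM (edgeR 4.0.16), as log2(CPM + 1). A log2 change on this scale understates that of low genes. Genes reaching 5 CPM in 2 or more libraries were fitted in limma 3.58.1 (R 4.3.3) with a trended empirical Bayes variance and 1 mean per group, and adjusted by Benjamini-Hochberg over all genes tested. Isl1Cre E9.25, with 1 library, was taken to vary like the other groups. Comparisons within libraries used the library as a block. Members were named in every comparison. In the comparisons within libraries, the text draws on the 10 largest called changes each way (average log2 level of at least 5, same sign in 80% of libraries) and on the gene lists, and for likeness on the 3 highest correlations. Zfpm1, Tcf4 and other list genes were named with their values seen. The members and lists were chosen with earlier results of these data known. Alternatives were the Tnnt2 threshold, depth, pseudocount, filter, leaving out libraries or the E7.75 stage, a replicate block, and edgeR or DESeq2 1.42.0 on the recovered counts. Stage steps, CPM thresholds of 20 and 50, drawing to 20000 counts, classes by level, pairs other than those of Hand1 with Hand2 and of Irx4 with Nr2f1 and Nr2f2, and 1 value per group were added after seeing the data. Scripts were tested on simulated data.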

Additional observations from a re-analysis of the deposited data

How the results depend on the processing

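Of 2996 values of single members under an alternative setting, 2885 kept both their direction, where called, and their side of the threshold, 59 lost a call, 47 gained one and 5 turned round. The 5 were the Irx4 slope in Isl1Cre with Tnnt2 of at least 4000 CPM (-0.09, in 11 libraries with none of E7.75), the Hand1 difference at E7.75 (0.05) and the Irx5 slope in Nkx2-5Cre (0.20) with cells drawn to 5000 counts, and, without Isl1Cre E9.25 replicate 1, the Nr2f2 slope in Isl1Cre (1.95, where leaving out single libraries gave -0.82 to 1.95) and the difference of the Nr2f2 slopes (2.60, with -0.26 to 2.60). Without Isl1Cre E9.25 replicate 1, every difference of slopes set an Isl1Cre slope to E8.75 against an Nkx2-5Cre slope to E9.25. The causes of the 5 reversals were not tested. At 5000 counts, 1 count is worth 200 CPM, and depth limits the members of low level most.

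Numbers of called genes follow in the order lineage difference averaged and by stage (4 values), slope in Isl1Cre, in Nkx2-5Cre and their difference, and the 3 steps between stages, which were 313, 928, 80, 7, 11, 1454, 1479, 84, 1770, 123 and 42. Apart from edgeR, only those that moved by over 1.5 times are given. With all kept cells, the averaged difference gave 775, E8.25 538, E8.75 34, E9.25 99, the slopes 2478 and 2679, their difference 277, and the steps to E8.75 and E9.25 859 and 117. With Tnnt2 of at least 1000 CPM, the averaged difference gave 524, E8.25 341, E8.75 19, E9.25 18, the slope difference 141 and the later steps 305 and 88. With at least 4000 CPM, which left 11 of 15 libraries and none of E7.75, so that both choices changed together, they were 148 for the average, 22 at E8.75, 33 at E9.25, 324 and 83 for the slopes, 38 for their difference, and 234 and 124 for the later steps. With cells drawn to 5000 counts, they were 39, 447, 15, 2 and 0, then 546, 364 and 32, then 823, 22 and 7, with 688 for Tnnt2-high against Tnnt2-low, 0 for Irx4-only against Nr2f-only and 1 for Hand1-only against Hand2-only cells. Without the E7.75 libraries, the average gave 188, E8.25 235, E8.75 23, E9.25 32, the slopes 436 and 71, and the later steps 336 and 119. With DESeq2, the average gave 522, E8.25 169, E8.75 40, E9.25 39, the slope difference 320, the later steps 335 and 179, and the Irx4 and Hand classes 122 and 224. With 1 value per group, an alternative added after seeing the data, the average gave 4, the slopes 356 and 18 and their difference 0. With no filter on low values, E7.75 gave 514, E8.75 21, E9.25 177, the slope difference 172, the last step 194 and the Irx4 and Hand classes 2 and 2. A pseudocount of 10 gave 13 at E8.75. With edgeR on the recovered counts, the Irx4 classes gave 55, the Hand classes 111, Tnnt2-high against Tnnt2-low 2224, the averaged difference 251 and E7.75 712.

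Leaving out 1 library at a time gave 108 to 728 for the average, 414 to 1901 at E7.75, 11 to 164 at E8.25, 5 to 18 at E8.75, 5 to 18 at E9.25, 1286 to 2243 and 667 to 2076 for the slopes, 29 to 658 for their difference, 1189 to 2439, 27 to 247 and 19 to 89 for the steps, 7 to 40 for the Irx4 and 41 to 106 for the Hand classes.

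The observed over expected number for Hand1 and Hand2 was 0.926 at 5000 counts and 0.971 at 50 CPM or more. For Irx4 and Nr2f2 it was 0.578 at 5000 counts, 0.727 at 20000 counts, 0.594 at 20 CPM and 0.267 at 50 CPM, and for Irx4 and Nr2f1 0.618 at 20000 counts and 0.542 at 50 CPM.

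Libraries of the same replicate number deviated little together between groups, with correlations of -0.03 to 0.13 over 21 pairs of groups (median 0.01). The correlations were taken over all genes tested, so that a pairing that touches few genes would hardly show in them. With a replicate block, E7.75 gave 943 called genes and the averaged difference 339. The block took the adjusted p of Irx2 at E7.75 to 0.0535, of the Irx5 slope in Isl1Cre to 0.0522 and of the Hand1 slope in Isl1Cre to 0.0489.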
